A study of Homo sapiens with 6 samples.

Results

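The genes described here are the enzymes of heme biosynthesis ALAS1, ALAS2, ALAD, UROS, UROD, CPOX, PPOX and FECH, together with SLC25A37, the carrier that brings iron into the mitochondrion. They were chosen as genes of 1 pathway, with earlier results of these data known, and all 9 were matched by symbol among 20163 protein-coding genes of the GENCODE annotation of hg19. Each gene was given a window made of its annotated span plus 10 kb on each side, and a peak was assigned to the gene when it shared at least 1 bp with that window. The 9 windows held 27 of the 28265 peaks of the list, and no peak fell into more than 1 window.

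The list comes from SMARCA4 ChIP-seq in K562, an established human chronic myelogenous leukaemia line with erythroid features. SMARCA4 (BRG1) is an ATPase of the SWI/SNF complexes, which move nucleosomes, and ChIP-seq maps where it can be crosslinked to chromatin. The cells, for which the labels give no treatment, were fixed with 2 mM disuccinimidyl glutarate for 30 min and 1% formaldehyde for 10 min, and 3 ChIP libraries and 3 input libraries are labelled. The study calls the libraries biological replicates, whereas the series description speaks of technical replicates with 1 input, and the description label of the ChIP samples reads G4 ChIP-seq although their antibody label and titles name SMARCA4. A region entered the list when 2 or more of the 3 replicates held it, and the list gives only a start and an end, so the list itself holds no value per replicate, peak height, SD or depth, and no difference was tested. Marker genes were looked up for the erythroid label, from lists chosen with earlier results of these data known, so the counts are a description. All 7 erythroid and megakaryocytic markers (GATA1, TAL1, KLF1, HBG1, EPOR, TFRC and NFE2) had a peak within 1 kb of a transcription start, against 0 of 8 markers of other blood cells and 0 of 4 markers of other tissues, beside 48.1% of all protein-coding genes. A peak is not a level of expression.

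Heme is built in a pathway that begins and ends in the mitochondrion and passes through the cytosol in between. Its rate is set at the first step, the condensation of glycine with succinyl-CoA, which is carried out by ALAS1 in all tissues and by ALAS2 in erythroid cells. In red cell precursors, GATA1 is known to bind genes of the pathway, in part at GATA sequences that lie next to a binding site of TAL1.

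All 9 genes had at least 1 peak in their window, and none had to be noted as empty. Over all protein-coding genes 63.0% had a peak in the same window, and the share was 65.5% among the 10305 genes whose length lay between those of the shortest and the longest of the 9 (4.63 to 46.5 kb). A promoter peak, defined as a peak within 1 kb of any annotated start of the gene, was present in 8 of the 9 genes, beside 48.1% of all protein-coding genes. ALAS2 was the exception. The start of the canonical transcript itself lay inside a peak in 7 of the 9 genes, ALAS2 and UROS being the others, beside 34.7% of the protein-coding genes with a canonical transcript. The number of peaks per window ran from 1 at UROS to 6 at SLC25A37, with a median of 3 beside a median of 1 over protein-coding genes, although the median window was shorter (36.2 kb, beside 47.2 kb).

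**Figure D1:**
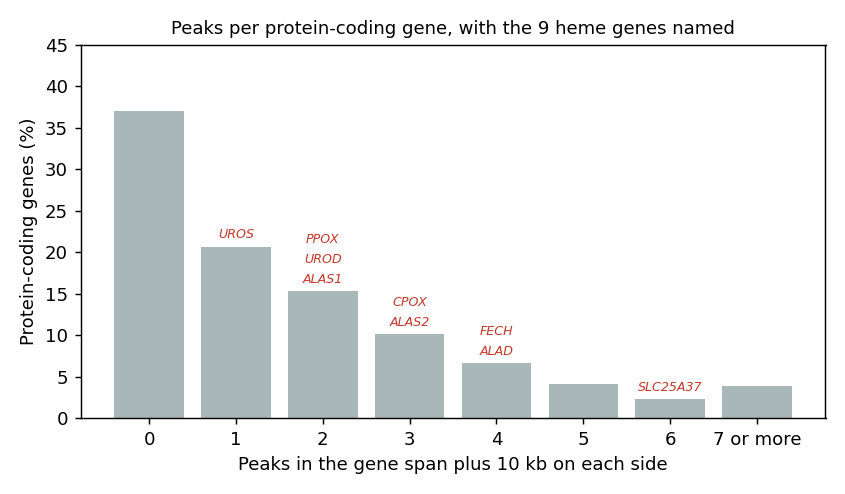
Share of the 20163 protein-coding genes (y axis, percent) by the number of peaks in the span plus 10 kb on each side (x axis), with the heme genes written above the bar they belong to. All 9 genes stand at 1 peak or more, whereas 37.0% of protein-coding genes have none.

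The 27 peaks were sorted by position. Of these, 12 were promoter peaks of the gene itself, and some of the 12 also lay within 1 kb of a start of another gene. A further 6 lay within 1 kb of a start of another gene only. The remaining 9 lay away from any annotated start, with 4 in introns, 2 touching an exon and 3 in the flanks. Near starts were thus 18 of the 27 peaks, beside 14424 peaks near starts and 13841 away from them in the whole list. Shares pooled over both classes therefore mix them differently in the 27 peaks and in the list. By this sorting, ALAS2, CPOX, FECH and SLC25A37 had 1 intronic peak each. The share of all protein-coding genes with an intronic peak was not counted, so this count is a description only. Peaks of other classes could also cover intron bases, such as the ALAS2 peak at the border of intron 8 and exon 9. The maps of the windows show these positions gene by gene.

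**Figure D2:**
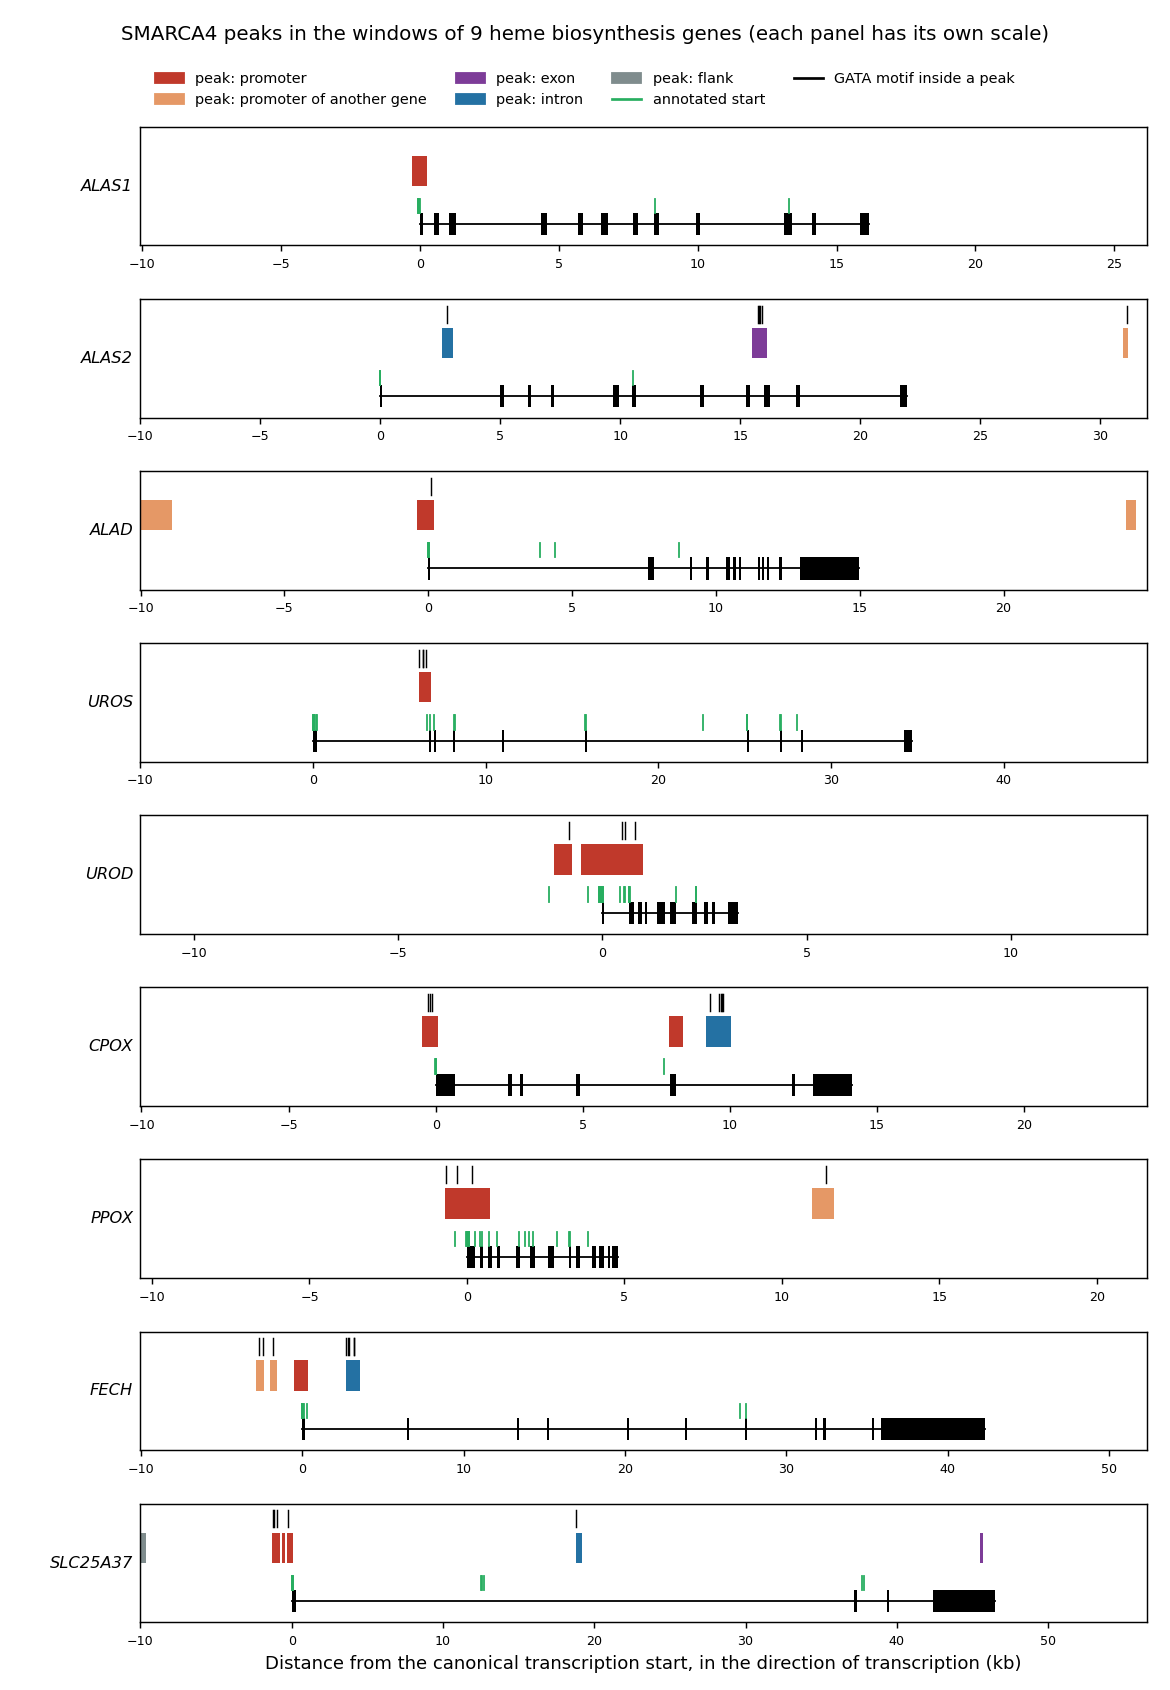
Map of each window, with the distance from the canonical start in kb on the x axis, in the direction of transcription. Black boxes are exons of the canonical transcript, green ticks are annotated starts, coloured boxes are 25 of the 27 peaks by class and black ticks above them are GATA motifs inside peaks. In 7 of the 9 panels a peak covers position 0, whereas in ALAS2 and UROS the first peak stands to its right.

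GATA sequences were searched for in every peak as AGATAA or AGATAG or TGATAA or TGATAG on either strand. A match is a description of the sequence and does not show that a factor is bound. In the sequences given for single genes, the letters of these motifs are in capitals and all coordinates are those of hg19.

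ALAS2, on the X chromosome at chrX:55035488-55057410 on the minus strand, encodes the erythroid enzyme of the first step, and its introns 1 and 8 are known to carry erythroid enhancers. The gene had 3 peaks in its window and no promoter peak. The nearest peak edge lay 2545 bp from the canonical start. This places ALAS2 among the 23.7% of protein-coding genes with a window peak that had none at a promoter. The peak next to the start, chrX:55054404-55054865, was 462 bp wide and lay wholly in intron 1, with its centre at 2.78 kb. It had 1 GATA motif, whose midpoint was 1 bp from the centre of the peak. This motif was part of an E-box-GATA composite, which is CTG followed by 8 bases of any kind and then AGATAA or TGATAA. The other intragenic peak, chrX:55041285-55041945, was 661 bp wide and spanned the border of intron 8 and exon 9, with its centre at 15.8 kb. Of its bases, 24.8% belonged to exon 9, and all 4 of its GATA motifs were in intron 8. It also held 2 CACCC boxes (CCACACCC or CCCCACCC) and 1 G4 motif. Both ALAS2 sequences are shown because they hold the 5 GATA motifs of the intragenic peaks, with the CTG of the composite also in capitals.
ALAS2 intron 1 chrX:55054582-55054678 (plus strand): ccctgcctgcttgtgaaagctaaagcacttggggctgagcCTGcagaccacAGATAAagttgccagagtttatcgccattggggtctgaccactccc
ALAS2 intron 8 chrX:55041478-55041707 (plus strand): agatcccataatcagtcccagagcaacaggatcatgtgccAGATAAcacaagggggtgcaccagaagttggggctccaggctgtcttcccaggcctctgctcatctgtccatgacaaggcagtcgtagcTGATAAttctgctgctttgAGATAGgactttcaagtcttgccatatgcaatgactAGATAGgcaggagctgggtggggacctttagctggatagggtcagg

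In the last sequence, 3 of the 4 motifs stand within 49.5 bp of the centre of the peak. The remaining peak of the ALAS2 window, chrX:55026282-55026479, belonged to the promoter of APEX2, which encodes a DNA repair nuclease. It was the narrowest of the ALAS2 peaks, at 198 bp, and had 1 GATA motif.

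ALAS1, at chr3:52232102-52248343 on the plus strand, encodes the enzyme of the same step in other tissues. Its arrangement was the reverse of that at ALAS2, with a peak over the start and none in an intron alone. The promoter peak, chr3:52231878-52232428, was 551 bp wide and covered 4 annotated starts. It had a GC content of 69.0%, no GATA motif and 1 G4 motif. As G4 motif, a sequence from which a G-quadruplex could form, counted any stretch with 4 runs of 3 or more guanines that were 1 to 7 bases apart. The G4 motif of the ALAS1 promoter is shown with its runs of guanines in capitals.
ALAS1 promoter chr3:52232360-52232386 (minus strand): GGGtgactGGGacagtGGGGGatGGGG

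ALAD, at chr9:116148592-116163570 on the minus strand, encodes the enzyme that joins 5-aminolevulinate into porphobilinogen. The gene is known to have separate housekeeping and erythroid promoters. Its window held 4 peaks, of which 1 was at a promoter of ALAD. This peak, chr9:116163375-116163957, was 583 bp wide and covered the canonical start with 1 GATA motif in intron 1, at 98.5 bp. The annotated coding starts at 3.88 and 4.41 kb downstream were 3693 and 4220 bp from any peak. Peaks at chr9:116138951-116139297 and chr9:116172478-116173588 belonged to the promoters of HDHD3 and of the pair POLE3 and C9orf43, and neither had a GATA motif. The latter was the widest peak of the window (1111 bp, with 4.94% of all peaks at least as wide).

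UROS, at chr10:127473549-127511827 on the minus strand, encodes uroporphyrinogen III synthase, which closes the tetrapyrrole ring. It is also known to be transcribed in erythroid cells from an alternative promoter inside the gene. The window held 1 peak, the lowest number of the 9 genes. This peak, chr10:127504997-127505691, was 695 bp wide and covered exon 2 of the canonical transcript with parts of introns 1 and 2. It did not touch the canonical start, which was 6136 bp away. Instead, it covered 2 annotated starts of protein-coding transcripts, at 6.63 and 6.75 kb downstream of the canonical one. All 4 GATA motifs of the peak were in intron 1 and upstream of the nearest of these starts, at 70.5, 245.5, 268.5 and 468.5 bp. The GC content of 37.7% was the lowest of the 27 peaks and stood beside a median of 63.3% over all peaks within 1 kb of a start. The stretch with 3 of the GATA motifs is given because it lies next to the internal starts.
UROS intron 1 chr10:127505229-127505512 (plus strand): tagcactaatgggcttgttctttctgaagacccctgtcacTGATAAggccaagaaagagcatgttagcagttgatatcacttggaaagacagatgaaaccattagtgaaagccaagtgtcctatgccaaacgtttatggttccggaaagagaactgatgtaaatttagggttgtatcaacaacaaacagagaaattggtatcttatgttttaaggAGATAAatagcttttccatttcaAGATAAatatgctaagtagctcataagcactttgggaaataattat

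The UROS peak was also isolated, since the next peaks lay 179 and 376 kb beyond the gene on its low and high sides.

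UROD, at chr1:45476622-45481247 on the plus strand, encodes the decarboxylase that makes coproporphyrinogen, and is the shortest of the 9 genes. Both of its peaks were promoter peaks, and both also lay within 1 kb of a start of HECTD3, a neighbouring ubiquitin ligase gene. The peak at chr1:45477394-45478917 was 1524 bp wide, the widest of the 27, and 1.61% of all peaks were at least as wide. It covered 18 annotated starts and reached exon 3, with 3 GATA motifs, of which 0 were in an exon of the canonical transcript. The other peak, chr1:45476739-45477196, was 458 bp wide with 1 GATA motif. Together they took up 8.05% of the window, the highest share of the 9 genes. The wide peak also held 2 G4 motifs, given here with runs of guanines in capitals.
UROD G4 motif a chr1:45478028-45478051 (minus strand): GGGtGGGGaaaGGGGagtagaGGG
UROD G4 motif b chr1:45478748-45478771 (plus strand): GGGGcaGGGGaGGGctctggaGGG

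CPOX, at chr3:98298290-98312492 on the minus strand, encodes coproporphyrinogen oxidase, with which the pathway returns to the mitochondrion. The window held 3 peaks, and they differed in their GATA content. The promoter peak at the canonical start, chr3:98312381-98312926, was 546 bp wide with a GC content of 61.5% and 2 G4 motifs. It had 3 GATA motifs, all upstream of every annotated start in the peak, with the nearest at 85.5 bp. The peak wholly inside intron 5, chr3:98302403-98303263, was 861 bp wide with a GC content of 39.8%. It held 5 GATA motifs, 1 of them 2.5 bp from its centre. Between the 2, the peak at chr3:98304049-98304523 (475 bp) covered exon 5 and had no GATA motif but 1 AP-1 motif (TGACTCA or TGAGTCA). It counted as a promoter peak through the start of a noncoding CPOX transcript, and a start of the gene ENSG00000285635 was also near, but no coding start of CPOX. The promoter peak is shown with its 3 GATA motifs and the intron 5 peak with 4 of its 5, in capitals, where TTATCT and CTATCT are motifs read on the opposite strand.
CPOX promoter chr3:98312535-98312766 (plus strand): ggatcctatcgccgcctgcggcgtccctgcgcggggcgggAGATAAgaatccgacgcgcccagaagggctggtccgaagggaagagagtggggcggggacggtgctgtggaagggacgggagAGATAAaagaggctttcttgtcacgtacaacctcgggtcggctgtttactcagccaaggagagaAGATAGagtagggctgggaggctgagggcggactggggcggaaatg
CPOX intron 5 chr3:98302641-98302878 (plus strand): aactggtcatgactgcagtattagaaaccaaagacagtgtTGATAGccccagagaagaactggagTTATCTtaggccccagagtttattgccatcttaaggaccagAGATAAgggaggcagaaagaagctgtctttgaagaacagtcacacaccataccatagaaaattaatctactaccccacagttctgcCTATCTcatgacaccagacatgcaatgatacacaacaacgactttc

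PPOX, at chr1:161135846-161147803 on the plus strand, encodes protoporphyrinogen oxidase of the inner mitochondrial membrane. Its promoter peak, chr1:161135511-161136938, was 1428 bp wide, with 2.13% of all peaks at least as wide, and was centred 8.5 bp from the canonical start. It covered 17 annotated starts of PPOX and lay near a start of the noncoding gene ENSG00000290115. Of its 3 GATA motifs, 1 was in exon 1 at 159.5 bp downstream of the canonical start and formed an E-box-GATA composite. This motif was the only one of the 44 GATA motifs in the 27 peaks that touched an exon of the canonical transcript of its heme gene. The other PPOX peak, chr1:161147167-161147874 (708 bp, 1 GATA motif), was at the promoter of B4GALT3, a galactosyltransferase gene.

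FECH, at chr18:55211609-55253964 on the minus strand, encodes ferrochelatase, which inserts iron into protoporphyrin in the last step. It had 4 peaks, all near the 5' end. The promoter peak, chr18:55253589-55254462, was 874 bp wide, covered 10 annotated starts and had no GATA motif. The GATA motifs stood on both sides of it. The intron 1 peak, chr18:55250333-55251213, was 881 bp wide and held 5 of them, 1 in an E-box-GATA composite. Upstream of the gene, the peaks at chr18:55255488-55255956 (469 bp) and chr18:55256329-55256794 (466 bp) had 1 and 2. These upstream peaks lay near a start of the noncoding gene ENSG00000278703 and were therefore classed as promoter peaks of another gene. The nearest of them to FECH also held a composite, 4.5 bp from the centre of the peak when measured at its GATA letters. Both composites are shown, with CTG and the GATA motifs in capitals.
FECH intron 1 chr18:55250648-55250744 (plus strand): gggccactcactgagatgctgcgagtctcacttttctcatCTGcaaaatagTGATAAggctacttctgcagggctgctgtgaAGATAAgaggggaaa
FECH upstream chr18:55255664-55255760 (plus strand): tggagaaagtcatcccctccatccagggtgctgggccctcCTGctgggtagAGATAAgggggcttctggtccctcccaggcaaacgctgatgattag

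In the direction of the gene body FECH had a long stretch without peaks, and beyond its 3' end the next peak lay 492 kb from the gene. The CPOX promoter, UROS and FECH upstream sequences were chosen for printing after their motifs had been seen.

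SLC25A37 (mitoferrin-1), at chr8:23386469-23432976 on the plus strand, is the mitochondrial iron importer of erythroid cells. Its 6 peaks, each counted separately, were the most of the 9 genes, and 6.21% of protein-coding genes had at least as many. The peaks at its starts lie less than 500 bp apart and would join where peaks up to 500 bp apart are merged. Neither its rank nor that share of genes was recounted after merging. A group of 3 peaks covered its starts or reached to within 1 kb upstream of them. From the outside in, they were chr8:23385153-23385719 (567 bp), chr8:23385825-23385943 (119 bp) and chr8:23386134-23386567 (434 bp), with 3, 0 and 1 GATA motifs. The last of these covered the canonical start and had a GC content of 70.5% and 1 G4 motif. Another peak lay in intron 1, chr8:23405260-23405670, with its centre at 19.0 kb from the start. It was 411 bp wide, with 1 GATA motif and 1 G4 motif. A peak of 193 bp, chr8:23431947-23432139, lay wholly in exon 4, the last exon, and had no GATA motif. The sixth peak, chr8:23376217-23376807 (591 bp), was in the upstream flank at -9.96 kb and had no GATA motif either.

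Among the upstream peaks, this flank peak was centred nearest to the limit of the 10 kb flank, followed by the POLE3 and C9orf43 promoter peak of the ALAD window at -9.47 kb. The peaks just outside the limit were 11.6 kb from PPOX, 14.3 kb from SLC25A37 and 15.8 kb from ALAS2, and for the remaining genes the next peak was at least 16.8 kb away.

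Across the 27 peaks, 19 had a GATA motif, or 70.4% (95% Wilson interval 51.5 to 84.1%), beside 51.3% of all peaks of the list. Such intervals cover counting error only, and neighbouring regions of a gene are not independent replicates. Away from any start, 7 of 9 peaks had a motif, beside 71.3% of all such peaks, so that the share in the heme genes was near that of the list. Within 1 kb of a start, 12 of 18 peaks had a motif (66.7%, interval 43.7 to 83.7%), beside 32.2% of all such peaks. These 18 include 6 peaks that lay near a start of another gene only. Those near APEX2, B4GALT3 and ENSG00000278703 had a GATA motif, and those near HDHD3 and near POLE3 and C9orf43 had none. The gap to the list was thus wider near starts than away from them, and it was not tested. In the central 200 bp alone, 48.1% of the 27 peaks had a motif, beside 39.1%. Away from starts it was 66.7% of the 9, beside 60.9%, and the share near starts was not counted in this way. The 18 peaks were also wider than the list's, with a median of 548.5 bp beside 410 bp, and lower in GC content (median 58.9% beside 63.3%), and the part of either in the share was not tested. Per kb of peak they held 2.08 GATA motifs beside 1.07, whereas peaks away from starts held 4.27 beside 3.81. Away from starts, at least 2 motifs were found in 4 of the 9 peaks, beside 43.6% of all such peaks. The same 4 peaks had at least 3, beside 21.9%, and 2 of them, those of CPOX intron 5 and FECH intron 1, had at least 5, beside 4.31%. These 9 peaks were wider than the list's (median 462 bp beside 337 bp), and the part of width in these counts was not tested.

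**Figure D3:**
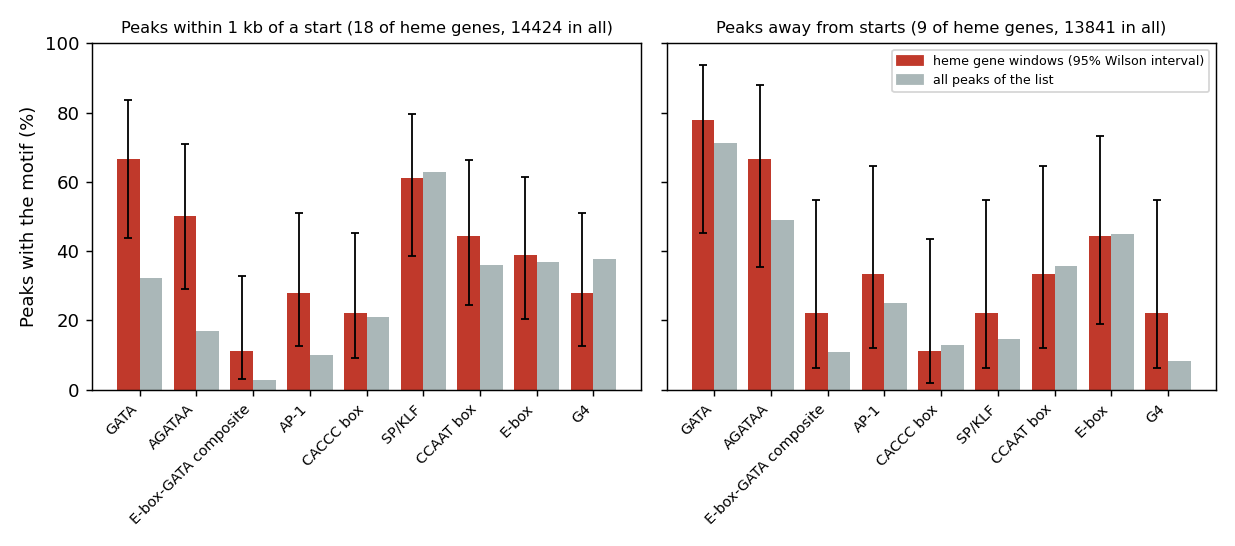
Share of peaks with each motif (y axis, percent) for the peaks of the heme gene windows (red, with 95% Wilson intervals) and for all peaks of the list (grey), within 1 kb of a start (left) and away from starts (right). Starts are those of any gene, so the left panel includes peaks of the windows that lay near a start of another gene only. There the red GATA bar stands at 66.7%, above the grey bar at 32.2%, and the bars away from starts stand at 77.8 and 71.3%.

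The windows were also read from the side of the motifs. Of 687 GATA motifs in the 9 windows, 44 lay inside a peak (6.40%), while peaks covered 4.08% of the bases, a ratio of 1.57. In the windows of all protein-coding genes with a peak the ratio was 0.916, and over the genome outside assembly gaps it was 0.909. The great majority of GATA motifs of the heme genes thus lay outside the peaks. By gene the share inside peaks ran from 3.15% at UROS, where peaks covered 1.19% of the bases, to 10.3% at UROD, where they covered 8.05%. The share was above the coverage in 8 of the 9 genes and below it at ALAD (4.08% of the motifs, 6.51% of the bases). How often single protein-coding genes with a peak stand above their coverage was not counted. Within the peaks that had a GATA motif, the nearest one lay at a median of 53.5 bp from the centre, beside 42 bp over all peaks with the motif. The 27 peaks were also wider than the list's (median 546 bp beside 368 bp), and the part of width in this distance was not tested.

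Other motifs were counted in the same way. The E-box-GATA composite was in 4 of the 27 peaks (ALAS2 intron 1, PPOX promoter, FECH intron 1 and FECH upstream), or 14.8% with an interval of 5.92 to 32.5%, beside 6.71% of all peaks. By class, the composite was in 2 of 18 peaks near starts (11.1%, interval 3.10 to 32.8%, beside 2.84%) and in 2 of 9 away from them (22.2%, interval 6.32 to 54.7%, beside 10.7%). An AP-1 motif was in 8 of the 27 (29.6%, interval 15.9 to 48.5%), beside 17.3%. It was in 5 of 18 peaks near starts (27.8%, interval 12.5 to 50.9%, beside 9.98%) and in 3 of 9 away from them (33.3%, interval 12.1 to 64.6%, beside 24.9%). Near starts the interval of AP-1 had a lower limit of 12.5%, above the 9.98% of the list. That of the composite, from 2 peaks, had a lower limit of 3.10% beside 2.84%, too close to be read as a difference. The FECH upstream peak, which held both motifs, counted as near a start through a noncoding gene only. The CPOX exon 5 peak, with an AP-1 motif, likewise had no coding start of CPOX within 1 kb. The AP-1 share among peaks near coding starts was not counted, so no difference is read from this interval. The 18 peaks near starts were also wider than the list's, and no difference was tested. A G4 motif was in 7 of the 27 (25.9%, interval 13.2 to 44.7%), beside 23.4%. By class, it was in 5 of 18 peaks near starts (27.8%, interval 12.5 to 50.9%, beside 37.8%) and in 2 of 9 away from them (22.2%, interval 6.32 to 54.7%, beside 8.26%). Both intervals held the share of the list, and no difference was tested. With loops of up to 12 bases the motif was in 40.7% of the 27, beside 34.2%. The shares were close for the CACCC box (18.5% beside 17.0%), the E-box CAGATG or CAGCTG (40.7% beside 40.8%) and the CCAAT box (40.7% beside 35.8%). The SP/KLF motif GGGCGG was in 48.1% beside 39.3% over both classes, but near starts, where most of the 27 peaks lay, it was in 61.1% beside 62.9%. The ETS motif CCGGAAGT was in 0 of 27, an upper Wilson limit of 12.5%, beside 3.52%.

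The median width of the 27 peaks was 546 bp with a 95% binomial interval from 434 to 695 bp, beside 368 bp over all peaks. These are widths of the entries of the pooled list, made by overlap of replicates, and not of peaks called in 1 replicate. The widths of the 27 ran from 119 bp at SLC25A37 to 1524 bp at UROD, and those of all peaks from 1 to 10019 bp. Without peaks under 200 bp the medians were 559 bp beside 426 bp. With peaks up to 500 bp apart merged they were 591 bp beside 421 bp. Peaks of like width could differ in their GATA motifs. The FECH promoter and intron 1 peaks (874 and 881 bp) had 0 and 5 motifs.

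**Figure D4:**
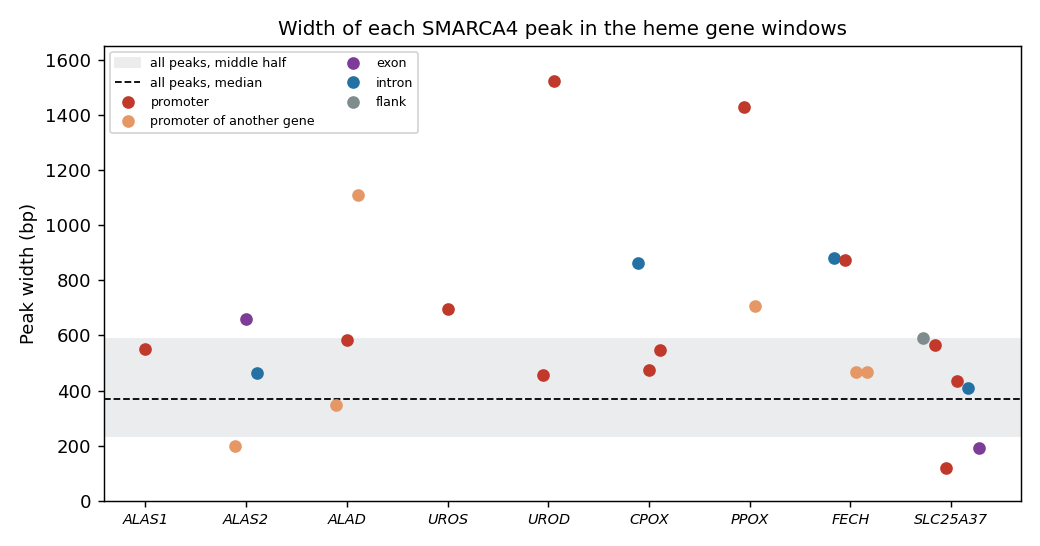
Width in bp (y axis) of 25 of the 27 peaks by gene (x axis), coloured by class, with the median (dashed, 368 bp) and the range from the first to the third quartile (grey band, 237 to 586 bp) of all peaks of the list. The promoter peaks of UROD and PPOX and the POLE3 and C9orf43 promoter peak in the ALAD window are the widest, from 1111 to 1524 bp.

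The rest of the pathway was described from a list of 27 other genes of mitochondrial supply and transport, iron-sulphur clusters, heme a, heme transport, degradation and sensing. Of these, 25 had a peak in the window (92.6%, beside 63.0% of protein-coding genes) and 20 a promoter peak (74.1%, beside 48.1%), with a median of 3 peaks. The genes without a peak were ABCG2, a porphyrin exporter, and PGRMC1, a heme-binding membrane protein. The most peaks, 5 each, were at ABCB6, a porphyrin transporter, at the biliverdin reductase genes BLVRA and BLVRB, and at EIF2AK1, the kinase that halts translation when heme is low. BACH1, a repressor that heme inactivates, had 4, as did 4 other genes of the list. Peaks away from any start had a GATA motif in 16 of 22 cases, beside 71.3% of the list, including 4 of 4 at BLVRA and 0 of 2 at BLVRB. Motifs in the peaks of these genes near starts were not counted here. By group, a promoter peak was found in 8 of 9 genes of mitochondrial supply and transport, 2 of 4 of iron-sulphur clusters, 2 of 2 of heme a, 2 of 4 of heme transport, 3 of 4 of degradation and 3 of 4 of sensing and binding.

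**Figure D5:**
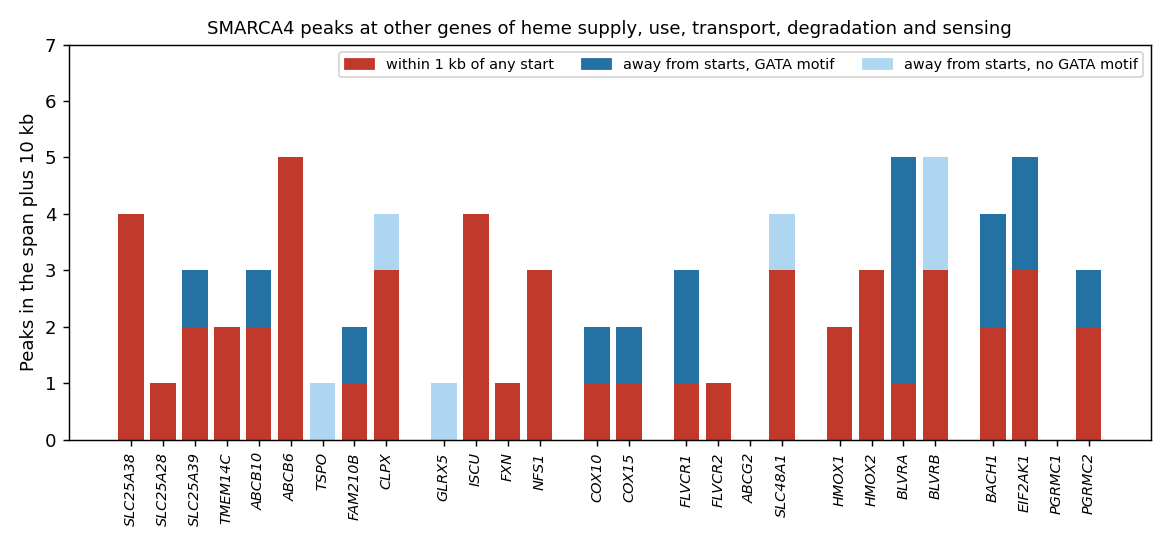
Number of peaks in the span plus 10 kb (y axis) at the 27 other genes, in the order of their groups (x axis), split into peaks within 1 kb of any start (red), peaks away from starts with a GATA motif (dark blue) and without one (light blue). ABCG2 and PGRMC1 have no bar, and the BLVRA bar has 4 peaks in dark blue.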

How the data were processed

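The deposited values are the start and end positions, in bp, of the peaks in 1 pooled list. To make the list, the authors used cutadapt for trimming, BWA for alignment to hg19, Picard and SAMtools against duplicates, MACS2 for peaks and bedtools to keep what 2 or more of 3 replicates shared. Peaks were overlapped with GENCODE 44 lifted to hg19, and motifs were searched in the hg19 sequence of each peak on both strands, in Python 3.11.15 with scipy 1.17.1, numpy 2.4.6 and statsmodels 0.14.6, and drawn with matplotlib 3.10.9. The counting was tested on simulated data. The members and lists were chosen with earlier results of these data known, although the rule itself uses no peak. The genes named are the 9 members, genes with a start within 1 kb of their peaks, and from the wider list 5 genes with the most peaks (ties taken in alphabetical order) and those with none, and the marker genes with a promoter peak are named too. Alternatives, where they apply to a count, were to drop peaks under 200 bp, to merge peaks up to 500 bp apart, and to use flanks of 0 or 50 kb, peak midpoints, other promoter rules, GATA motifs in the central 200 bp or as AGATAA only, and G4 loops of up to 12 bases. Of the 27 peaks, 2 flank peaks enter the counts and are not reported singly here, and the wider list and the erythroid markers are each given without 1 gene not reported here, which had no peak in the former and a promoter peak in the latter. Signal tracks and G4 sites were not analysed here.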

Additional observations from a re-analysis of the deposited data

How the results depend on the processing

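The 9 of 9 genes with a peak and the 8 of 9 with a promoter peak were found under each alternative run for them. The number of peaks in the windows was 17 without a flank and 51 with a flank of 50 kb, as a narrower or wider window must give. The share of peaks with a GATA motif was 48.1% when only the central 200 bp were searched, beside 39.1% of all peaks. The other alternatives, 38 in all, stayed within the counting interval of a share or median or within 1.5 times a count. The deposited list pools the 3 replicates, without a value for any of them. From this list a paired analysis was not possible, and no result could be recomputed without each replicate in turn. The reads of the single libraries were not used. Depth limits which regions were called, and the list does not show it, so the absence of a peak at the ALAS2 promoter is not the absence of SMARCA4.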
